A study of Rattus norvegicus with 60 samples.

Results

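The growth of the low-dose response of rat liver to perfluorooctanoic acid (PFOA) during the second week of dosing was measured as a difference of differences. The 1 mg/kg effect at day 7 (treated minus vehicle) was subtracted from the 1 mg/kg effect at day 14. The 4 groups were chosen by their treatment labels alone and hold 20 of the 60 liver libraries, 5 rats a group. All rats were male Sprague-Dawley animals, housed singly and dosed daily by mouth with a gavage needle, either with water as vehicle or with PFOA dissolved at 10 ml/kg. The study also dosed at 5 and 15 mg/kg and collected livers at day 28. The labels give the rats as 7 to 8 weeks old at day 7, 8 to 9 weeks at day 14 and 10 to 11 weeks at day 28, while the design text gives 5 to 6 weeks, so each later group was also older. Liver was read as polyadenylated RNA from whole tissue, 1 library a rat. In such bulk samples, fewer cells of a type and less RNA per cell cannot be told apart.

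PFOA is a fluorinated analogue of a medium-chain fatty acid. In rodent liver it is known to activate PPARα, a nuclear receptor that pairs with RXR on direct repeats of the half-site AGGTCA and turns on peroxisomal and mitochondrial fatty acid oxidation, acyl-CoA thioesterases and the CYP4A omega-hydroxylases. Other nuclear receptors, among them CAR and PXR, answer to it as well.

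Total counts in the 20 libraries ran from 7965497 to 19159502, with a median of 10914628.5. All 12 hepatocyte markers on the list used here were detected in every group, and their summed level was 128600 to 273300 CPM (counts scaled to a common library size) over the 20 libraries. Libraries of 1 group differed along a single axis that held 58.9% of the within-group variance and along which transcripts of the cytosolic ribosomal proteins fell. The position of each library on it, called the library score, entered the model as a covariate. Its group means were -0.05 and 0.07 SD in vehicle and treated livers at day 7, and -0.56 and 0.52 SD at day 14. The difference of differences of 0.95 SD had an exact permutation p of 0.304 (two-sided, 63504 arrangements of treatment labels within days, adjusted p = 0.544 over 12 such tests). A second axis held 9.49% of what remained. On it the 1 mg/kg livers stood at -1.14 SD at day 7 and 0.49 SD at day 14, against -0.41 and -0.59 SD in vehicle livers (exact permutation p of the difference of differences = 0.0586, adjusted p = 0.267). Its part in the results was not tested beyond the fits given below. At day 7 the scores of rats 1 to 5, numbered in the order of deposition, were -0.17, 1.18, -1.13, -1.23 and 1.09 SD in vehicle and 0.28, 0.97, -1.01, -1.28 and 1.38 SD in treated livers, and rat 4 was the lowest in each of the 4 groups. The labels name no batch, so whether the order of deposition marks one was not tested, and the permutations treat the rats of a day as exchangeable. No pair of libraries in a group agreed within sampling noise.

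**Figure D1:**
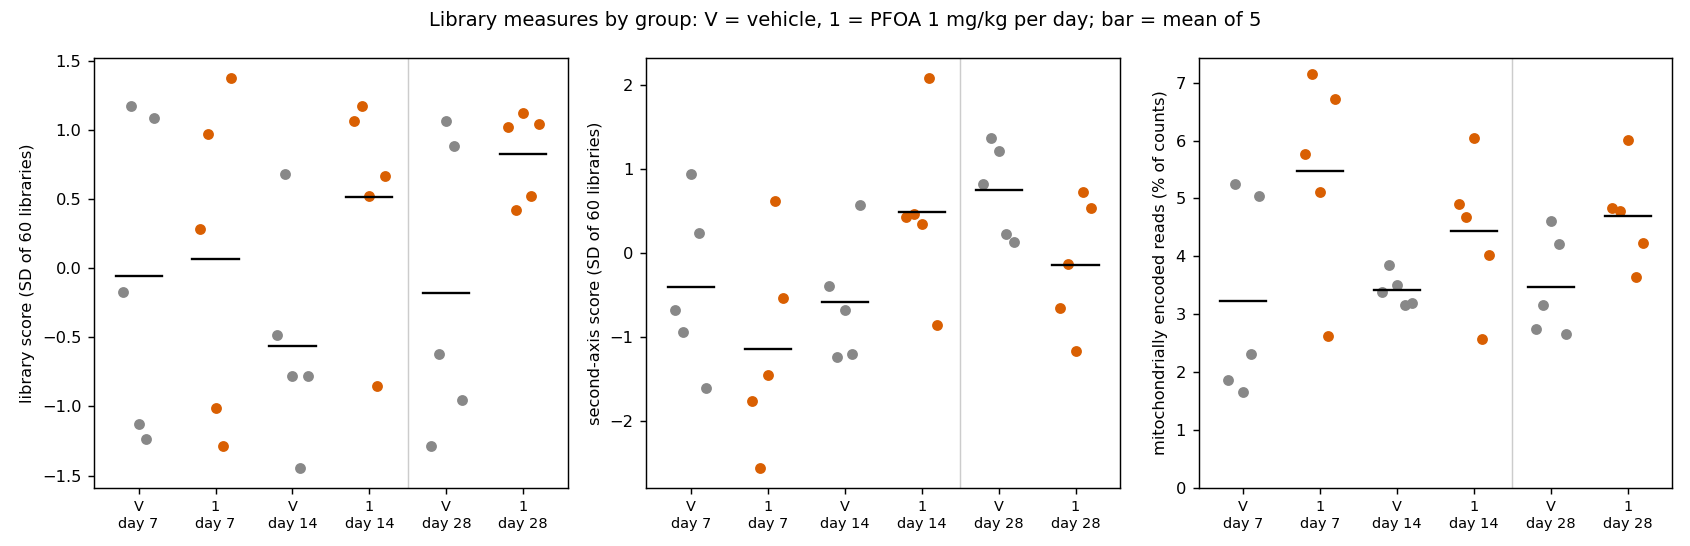
Library score (left), second-axis score (middle) and share of counts from mitochondrially encoded genes (right) for vehicle livers (V, grey) and livers given 1 mg/kg per day (1, orange). Points are libraries and bars are means of 5; the scores are in SD of the 60 libraries. On the second axis the treated mean lies below the vehicle mean at day 7 (-1.14 against -0.41) and above it at day 14 (0.49 against -0.59), and the libraries of the 2 groups overlap on both days.

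Genes of fatty acid metabolism were among those at which the low-dose response grew. Acot1, a cytosolic acyl-CoA thioesterase and a classical PPARα target, gave the largest called value, and Ehhadh, Eci1, Ech1 and Acot4 of the oxidation pathways rose with it. Asns, which makes asparagine, also rose, whereas Idi1 and other genes of cholesterol synthesis fell. Over 12167 genes tested, 537 passed an adjusted p of 0.05 in edgeR's quasi-likelihood test, which is 4.41% of all. Of these, 305 (2.51%) had an effect that was more positive at day 14 than at day 7, here called higher, and 232 (1.91%) one that was more negative, here called lower.

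How many genes passed rested on the treatment of the library axes and on single rats. Without the library score 12 genes were higher and 6 lower, all 18 (0.148% of genes) among the 537, and with the second axis as a further covariate 4 (0.0329%) were higher and none lower. In that last fit 1378 genes had an unadjusted p under 0.05, and all 537 genes kept the sign of their value. Of the 500 genes that define the second axis, 78 were among the 537, against 13 of the 500 that define the library score. Of all genes tested, 4.41% were among the 537. How far the second axis takes up the difference itself was not tested. Leaving out 1 library at a time gave 65 to 495 genes higher and 38 to 368 lower. The lowest counts were 65 and 38 without vehicle rat 3 of day 7, 79 and 77 without treated rat 4 of day 14, and 92 and 76 without treated rat 2 of day 7. Treated rat 4 of day 14 also had the highest second-axis score of the 20 libraries, 2.08 SD, and was the highest of its group in 151 of the 305 genes called higher, against 38.3% of all genes tested.

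Both Acot1 and Rpusd3 were called with the library score, without it and with both axes. Rpusd3, a mitochondrial pseudouridine synthase, was named after its values were seen. Aig1, a hydrolase of fatty acid esters of hydroxy fatty acids, and Acot4 were called with either kind of score but not without one.

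Acot1 transcripts stood at 3.63, 0.416, 1.26, 0.248 and 0.874 CPM in vehicle livers at day 7 and at 18.8, 15.2, 23.4, 17.1 and 5.88 CPM in the livers given 1 mg/kg. At day 14 the vehicle livers read 1.4, 0.471, 0.896, 0.142 and 0.124 CPM, and the treated livers 150, 176, 118, 471 and 204 CPM. Groups did not overlap at either day, and every treated liver of day 14 lay above every treated liver of day 7. The log2 effect was 3.65 ± 0.48 (SE) at day 7 and 8.47 ± 0.55 at day 14. Their difference was 4.82 ± 0.79 with an adjusted p of 0.000785 in edgeR's quasi-likelihood test. The vehicle groups together held 65 Acot1 reads at day 7 and 37 at day 14, so the vehicle level is known coarsely. Acot1, Acot2, Acot3 and Acot4 are close paralogues, and reads may be shared among them.

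Ehhadh, the bifunctional enzyme of peroxisomal β-oxidation, read 1059, 1108, 725, 536 and 653 CPM in vehicle livers at day 7 and 2448, 2425, 2396, 1975 and 2302 CPM at 1 mg/kg. At day 14 vehicle livers read 612, 953, 637, 517 and 470 CPM and treated livers 5498, 6171, 4120, 4341 and 4110 CPM. Again neither day's groups overlapped, and the treated groups of the 2 days did not overlap either. The log2 effect rose from 1.497 to 2.73, a difference of 1.24 ± 0.27 with an adjusted p of 0.0105 (edgeR), and was 3.18 at day 28.

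Eci1, a mitochondrial enoyl-CoA isomerase needed for unsaturated fatty acids, read 513, 390, 637, 461 and 288 CPM in vehicle and 657, 557, 742, 798 and 573 CPM in treated livers at day 7. At day 14 the values were 366, 440, 392, 259.1 and 336 CPM in vehicle and 1179, 1196, 1109, 1878 and 941 CPM in treated livers. The groups overlapped at day 7 and were apart at day 14, when treated rat 4 was the highest. The effect rose by 1.34 ± 0.22 on the log2 scale (edgeR adjusted p = 0.000785), from 0.56 to 1.90. With the second axis in the model the value was 0.86 ± 0.20 and no longer called (adjusted p = 0.0671).

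**Figure D2:**
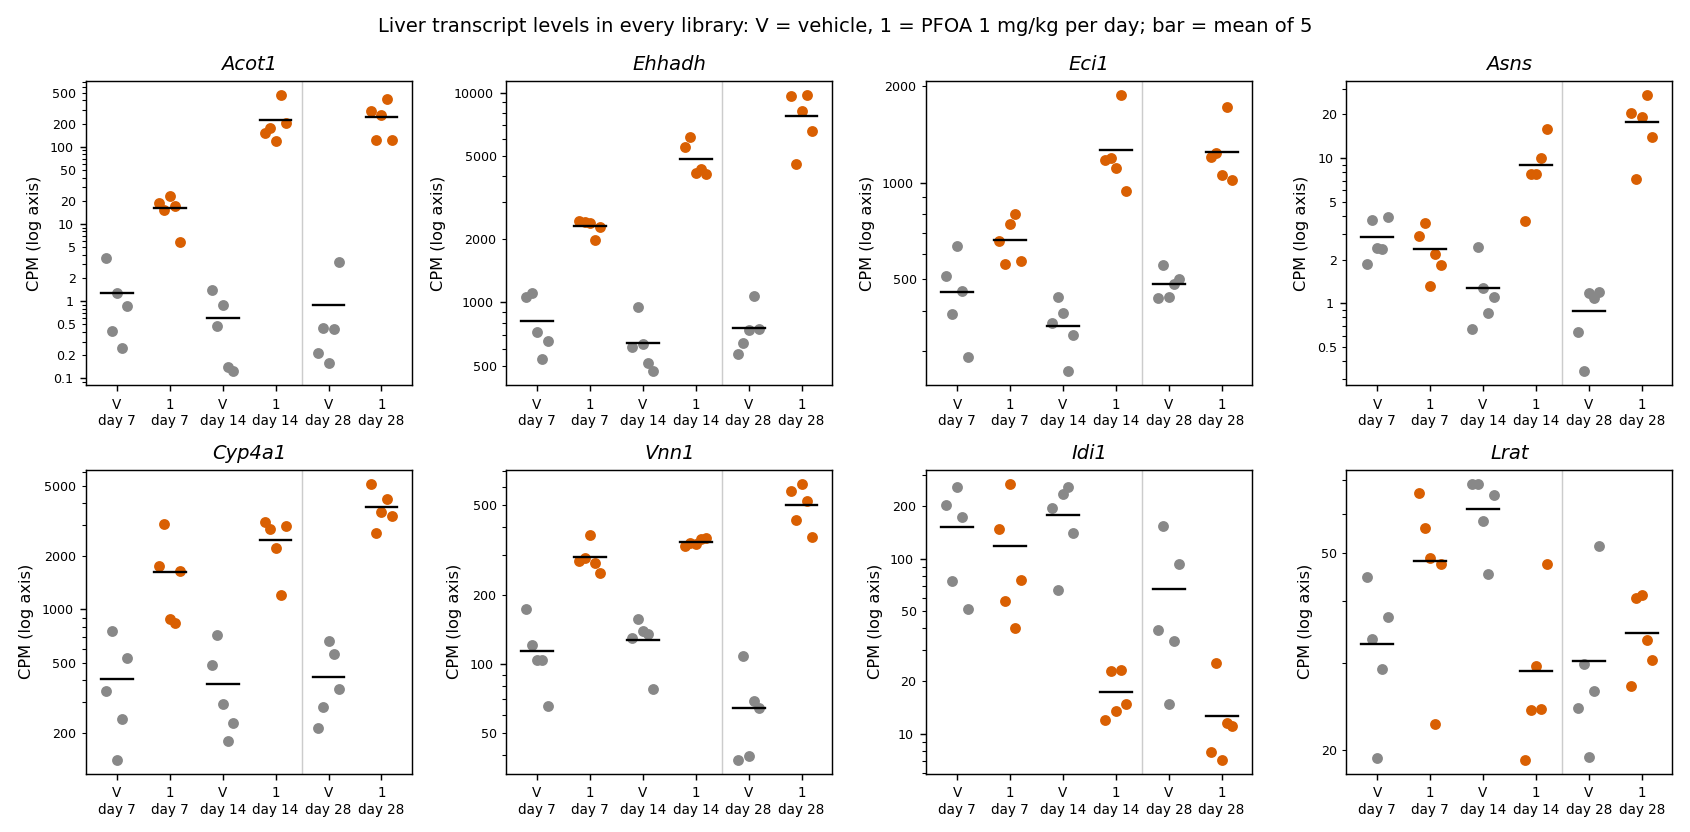
CPM on a log axis for 8 genes in vehicle livers (V, grey) and livers given 1 mg/kg per day (1, orange); points are libraries, bars means of 5, and the grey line sets off day 28, which is not part of the difference. Acot1, Ehhadh, Eci1 and Asns are higher in treated livers at day 14 than at day 7, Cyp4a1 and Vnn1 are above vehicle at both days, and the means of Idi1 and Lrat are lower in treated than in vehicle livers at day 14.

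The promoters of these 3 genes, from RefSeq on build GRCr8 (250 bases before the annotated start to 50 after, sense strand), are shown because the 3 genes moved together; the PPAR half-site AGGTCA, on either strand, is in capitals. The counts themselves were made on Rnor_6.0. Acot1 lies at chr6:109367024-109367323, Ehhadh at chr11:92746159-92746458 and Eci1 at chr10:13961000-13961299, each on the plus strand.
Acot1: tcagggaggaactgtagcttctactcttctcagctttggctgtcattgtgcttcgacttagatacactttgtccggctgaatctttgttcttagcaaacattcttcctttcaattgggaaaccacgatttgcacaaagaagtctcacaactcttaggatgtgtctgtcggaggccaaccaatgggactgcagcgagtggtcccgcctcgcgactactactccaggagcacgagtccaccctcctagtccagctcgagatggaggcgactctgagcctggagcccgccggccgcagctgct
Ehhadh: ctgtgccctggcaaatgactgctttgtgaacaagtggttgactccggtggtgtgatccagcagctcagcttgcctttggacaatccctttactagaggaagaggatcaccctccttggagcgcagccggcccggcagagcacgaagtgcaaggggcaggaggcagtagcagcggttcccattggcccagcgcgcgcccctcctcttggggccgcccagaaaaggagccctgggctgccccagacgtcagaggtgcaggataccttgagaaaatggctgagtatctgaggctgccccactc
Eci1: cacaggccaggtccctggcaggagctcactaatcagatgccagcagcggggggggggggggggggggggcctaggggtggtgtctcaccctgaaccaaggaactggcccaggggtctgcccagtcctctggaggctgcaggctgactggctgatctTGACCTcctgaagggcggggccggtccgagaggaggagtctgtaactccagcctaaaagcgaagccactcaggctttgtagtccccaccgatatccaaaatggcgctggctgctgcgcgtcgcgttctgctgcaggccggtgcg
Only the Eci1 window of these 3 held the half-site, as 1 match on the reverse strand that begins 94 bases before the start. Of 33469 rat promoters of the same length, 16.2% held the half-site, and 18 (0.0538%) held the full direct repeat AGGTCANAGGTCA on either strand, which none of the 3 windows did. Letters missing from a window this short say nothing on whether the receptor acts at the gene.

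The fatty acid genes were followed as 3 lists, whose called members all moved in the higher direction. These lists and those below were chosen with earlier results of these data known. The shares of all genes set beside them therefore make no test. Of 22 peroxisomal oxidation genes tested, 7 were higher and none lower, with a median log2 difference of 0.45. Of 19 mitochondrial oxidation genes 6 were higher and none lower, with a median of 0.37, and of 35 other PPARα targets 7 were higher and none lower, with a median of 0.52. Of all genes tested 2.51% were higher, and their median was -0.02. With both axes in the model 1, 0 and 1 members were called, against 0.0329% of all genes, and the medians were 0.54, 0.36 and 0.46. Without the score 2, 1 and 1 members were called, against 0.148%.

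Among peroxisomal members, Ech1, a dienoyl-CoA isomerase, averaged 318.8 ± 39.2 (SD, n = 5) CPM in vehicle and 561 ± 46.1 CPM in treated livers at day 7. At day 14 vehicle livers ran from 206 to 349 CPM and treated livers averaged 895 ± 91.5 CPM, above all of them. Its effect grew by 0.83 ± 0.17 (log2, edgeR adjusted p = 0.00982). Acaa1a, a thiolase, read 157 ± 35.4 CPM in vehicle and 199 ± 73.5 CPM in treated livers at day 7, with overlap, and 132 ± 15.5 and 537 ± 199 CPM at day 14, without. Its difference of 1.77 ± 0.46 (adjusted p = 0.0230) shrank to 0.53 ± 0.26 with the second axis, more than for any other gene named in this paragraph. Pex11a, which drives peroxisome division, was already up at day 7 (log2 1.01) and reached 1.74 at day 14, a difference of 0.73 ± 0.21. Acot3 and Acot4 thioesterases had differences of 1.44 ± 0.31 and 0.96 ± 0.23, of which 43.2% and 54.6% came from a lower vehicle level at day 14. Acot4 lost its call without vehicle rat 3 of day 7 (adjusted p = 0.051).

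Among mitochondrial members, Acot2 rose by 1.24 ± 0.31, and Cpt2, the inner-membrane carnitine palmitoyltransferase, by 0.75 ± 0.16. Acot2 lost its call without vehicle rat 3 of day 7 (adjusted p = 0.0568). Of the other targets, Mlycd, which degrades malonyl-CoA, rose by 1.02 ± 0.22 and Plin5, a lipid droplet coat protein, by 1.39 ± 0.38. For Mlycd and Plin5, the treated and vehicle groups overlapped at day 7 and were apart at day 14. Leave-out fits took the call from Pex11a and Plin5 in 8 of 20 cases each and from Acaa1a in 3, with adjusted p up to 0.0729, 0.0742 and 0.0674. G0s2, an inhibitor of adipose triglyceride lipase, had a difference of 2.10 ± 0.48 (adjusted p = 0.0141), but its treated livers at day 14 read 188, 160, 127, 498 and 62.7 CPM and overlapped the vehicle livers at both days.

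Several established PPARα and CAR targets did not pass the test of the difference. Cyp4a1, a fatty acid omega-hydroxylase, read 346, 759, 141, 240 and 533 CPM in vehicle and 1756, 3025, 888, 835 and 1646 CPM in treated livers at day 7. At day 14 vehicle livers read 487, 715, 290, 182 and 228 CPM and treated livers 3110, 2859, 2221, 1208 and 2957 CPM. The groups were apart on both days, and the log2 effect was 2.01 at day 7 and 2.09 at day 14, a difference of 0.07 ± 0.26 (edgeR adjusted p = 0.897). Vnn1, a pantetheinase, had effects of 1.38 and 1.52 and a difference of 0.14 ± 0.28 (adjusted p = 0.807), and then 3.07 at day 28. The CAR target Cyp2b1 had 1.47 and 1.85 (difference 0.38 ± 0.48, adjusted p = 0.674). No member of the 18 CAR and PXR targets tested was called, against 4.41% of all genes. At that share a list this short may hold no call. A p that misses the threshold does not show that these effects were equal. Of the 16 genes on a panel of PFOA-responsive genes, Acot1, Ehhadh and Stac3 were called, against 4.41% of all genes.

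Of 19 tested genes of the amino acid response and integrated stress list, 3 were higher and none lower, against 2.51% of all genes higher. The list median was 0.85. Without the score 2 were called, and with both axes none was called and the median was 0.49. Asns read 1.87, 3.75, 2.4, 2.36 and 3.9 CPM in vehicle and 2.9, 3.58, 1.31, 2.19 and 1.84 CPM in treated livers at day 7. At day 14 vehicle livers read 0.668, 2.45, 1.28, 0.855 and 1.11 CPM and treated livers 3.7, 7.78, 7.72, 10 and 16 CPM. The groups overlapped at day 7 and were apart at day 14. The difference was 2.93 ± 0.62 (edgeR adjusted p = 0.00982), with 36.3% of it from a lower vehicle level. The effect at day 28 was 3.97. Atf5, a stress-induced transcription factor, lay below vehicle in every treated liver at day 7 (108 ± 14.7 against 168 ± 21.2 CPM) and above it at day 14 (238 ± 28.2 against 137 ± 30.7 CPM). Its difference was 1.304 ± 0.29 (adjusted p = 0.0105). The third was Shmt2, the mitochondrial serine hydroxymethyltransferase (0.64 ± 0.18). Shmt2 lost its call without any 1 of 7 libraries, and its adjusted p then reached 0.1. Fgf21, a hepatokine under PPARα and stress control, had a difference of 4.22 ± 1.503 that was not called (adjusted p = 0.0860). Its treated livers lay below vehicle at day 7 in all 5 rats.

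The called genes of cholesterol synthesis moved the other way. Idi1, the isopentenyl-diphosphate isomerase, read 203, 74.6, 255.5, 174 and 51.5 CPM in vehicle and 147, 57.7, 268.4, 40.3 and 75.7 CPM in treated livers at day 7. At day 14 vehicle livers read 195, 66.3, 233 and 140 CPM, with rat 4 above these, and treated livers 12, 22.8, 13.6, 23.2 and 14.8 CPM. The groups overlapped at day 7, and at day 14 the highest treated liver was below the lowest vehicle liver. The effect fell by 2.48 ± 0.53 on the log2 scale (edgeR adjusted p = 0.00982), and 1.08% of this came from the vehicle groups. Of 26 genes tested on the list, 7 were lower and none higher, against 1.91% of all genes lower. Without the score 1 was called and with both axes none. The list median was -0.65, and -0.41 without the score and -0.85 with both axes; 22 of 26 values were below 0, against 6271 of 12167 for all genes.

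Other called members were Sqle, the squalene epoxidase (-1.78 ± 0.53), Cyp51, the lanosterol demethylase (-1.41 ± 0.39), and the sterol sensors Insig1 (-1.68 ± 0.47) and Insig2 (-1.09 ± 0.26). In each of these 4 genes the treated livers of day 14 lay below every vehicle liver of that day. Such separation at day 14, here and at other called genes, is set in part by the choice of called genes. The day 14 values enter the difference, and the share of all genes so separated was not counted. Cyp51 lost its call without any 1 of 8 libraries (adjusted p up to 0.0692), Sqle without any 1 of 14 and Insig1 without any 1 of 6 (up to 0.0883 for both), and Insig2 without vehicle rat 3 of day 7 (adjusted p = 0.0569). At day 7 no list member was called against vehicle, against 1.5% of all genes, a share at which such a list may hold no call. At day 14 16 were lower (against 6.02% of all genes), and at day 28 4 (against 3.48%).

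**Figure D3:**
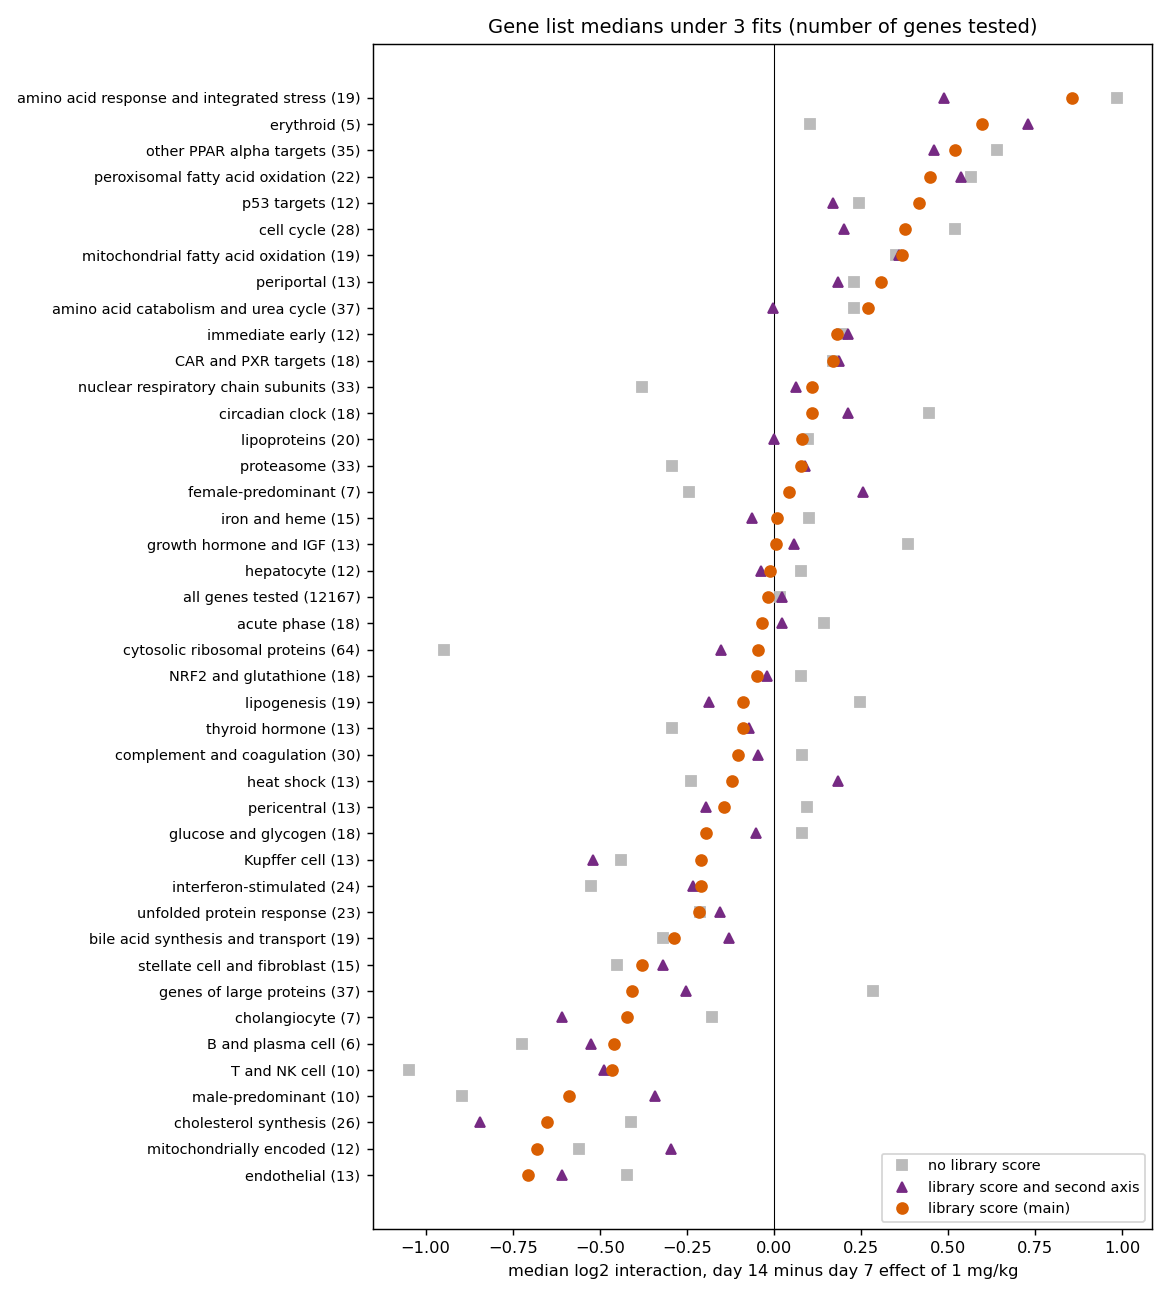
Median log2 difference (1 mg/kg effect at day 14 minus that at day 7) of each gene list with 5 or more genes tested, the number tested in brackets, in 3 fits: without the library score (squares), with it (circles) and with a second axis as well (triangles). The fatty acid and amino acid response lists lie above 0 and cholesterol synthesis and endothelial markers below 0 in all 3 fits, while the ribosomal protein list lies at -0.95 without the score and at -0.05 with it.

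Among markers of non-parenchymal cells, calls fell mainly on endothelial genes. Of 13 endothelial markers tested, 7 were lower and none higher, against 1.91% of all genes lower. All 13 values were below 0 (median -0.71), against 6271 of 12167 for all genes. Lyve1, a hyaluronan receptor of sinusoidal endothelium, read 65.7, 47.7, 49.5, 55.4 and 62.2 CPM in vehicle and 82.8, 86.6, 93, 73.7 and 74.6 CPM in treated livers at day 7. At day 14 vehicle livers read 61.9, 81.5, 70.7, 77.9 and 47.2 CPM and treated livers 58.6, 57.2, 48.3, 57.7 and 65.2 CPM. Treated livers lay above vehicle at day 7 and overlapped it at day 14, and the difference of -0.83 ± 0.18 (edgeR adjusted p = 0.00982) set a called effect of 0.54 at day 7 against one of -0.28, not called, at day 14. The summed level of the 13 markers showed the same order: 297 to 359 CPM in vehicle and 454 to 512 CPM in treated livers at day 7, and 340 to 508 CPM and 328 to 434 CPM at day 14. None of these markers was at 0 in any group.

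The scavenger receptor Stab2 (-1.03 ± 0.25), the Fc receptor Fcgr2b (-0.94 ± 0.20), the VEGF receptor Kdr (-0.71 ± 0.19) and the phosphatase Ptprb (-1.03 ± 0.25) were called as well. Between 50.6% and 68% of each of these came from higher vehicle levels at day 14, none of them a called change. Kdr lost its call without any 1 of 5 libraries (edgeR adjusted p up to 0.0585) and Ptprb without 1 (0.0568). Lyve1, Stab2 and Fcgr2b kept theirs in all 20 fits without a library. No endothelial marker was called without the library score (median -0.42) or with both axes (median -0.61). Within groups the markers followed the library score closely, with a median correlation of 0.83 over genes, and what part the score adjustment has in these calls was not tested further.

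Of 15 stellate cell and fibroblast markers 2 were lower, against 1.91% of all genes, and 4 of the 15 values were above 0. With both axes none of the 15 was called. Lrat, which stores retinol as esters, read 44.7, 33.6, 19.3, 29.1 and 37.2 CPM in vehicle and 65.9, 56.1, 48.9, 22.6 and 47.5 CPM in treated livers at day 7. At day 14 it read 69, 68.8, 58, 45.3 and 65.3 CPM in vehicle and 19.1, 24.2, 29.6, 24.2 and 47.4 CPM in treated livers. Every vehicle liver of day 14 lay above every vehicle liver of day 7, and 55.2% of the difference of -1.69 ± 0.36 (edgeR adjusted p = 0.00982) came from the vehicle groups. Hgf, the hepatocyte growth factor, was lower by a difference of -1.42 ± 0.27 (adjusted p = 0.00334), with the day 14 groups apart. The summed level of 16 stellate markers at day 14 was 707 to 877 CPM in vehicle and 568 to 718 CPM in treated livers. These ranges overlapped. In vehicle livers 1 of the 16 was at 0 in every liver at day 7, and 1 at day 14. Whether it was the same gene on both days was not checked. The Kupffer cell list had 1 call in 13, Msr1, a macrophage scavenger receptor (-1.03 ± 0.22), which was not called with both axes, and 5 of the 13 values were above 0. No marker of lymphocytes, neutrophils, cholangiocytes, red cells or hepatocytes was called, against 4.41% of all genes. Tested were 10 T and NK cell, 6 B and plasma cell, 2 neutrophil, 7 cholangiocyte, 5 red cell and 12 hepatocyte markers. At that share lists this short may hold no call. All 5 red cell markers tested had a difference above 0 (median 0.60, and 0.10 without the score). Their median effect was below 0 on both days, -0.72 at day 7 and -0.04 at day 14.

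The remaining genes with the largest called values lie outside these groups. Higher were Gpat3, a glycerol-3-phosphate acyltransferase (2.91 ± 0.86), Angptl8, an insulin-induced regulator of lipoprotein lipase (2.64 ± 0.62), Scand1 (2.03 ± 0.61), the homeobox gene Irx1 (1.89 ± 0.55), the proprotein convertase Pcsk4 (1.78 ± 0.49), the ribosome assembly factor Rrs1 (1.78 ± 0.32) and the pyridoxal phosphatase Pdxp (1.77 ± 0.50). Rrs1 had 12.2, 21.6, 15.8, 9.68 and 9.73 CPM in vehicle and 10.9, 8.12, 8.36, 9.78 and 10.1 CPM in treated livers at day 7, and 9.11, 5.28, 8.83, 5.55 and 6.07 CPM against 13.9, 16.2, 15, 27.1 and 17.4 CPM at day 14. The vehicle livers of day 14 all lay below those of day 7, the treated ones all above, and 50.4% of the difference came from the vehicle side. Angptl8 and Scand1 were highest in treated rat 4 of day 14, at 58.4 and 10.5 CPM, against 7.67 to 16.2 CPM and 1.58 to 2.6 CPM in the other 4 rats. Angptl8 lost its call without that rat (adjusted p = 0.054). Rrs1 kept its call whichever single library was left out, whereas Gpat3, Scand1, Irx1, Pcsk4 and Pdxp each lost theirs without any 1 of 7 to 13 libraries.

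Lower were Upp2, a liver uridine phosphorylase (-2.91 ± 0.76), the basic leucine zipper factor Nfe2 (-2.63 ± 0.69), the BMP antagonist Chrdl1 (-2.56 ± 0.74), Stac3 (-2.395 ± 0.70), the rhomboid-family gene Rhbdl3 (-2.34 ± 0.63), the ephrin receptor Epha3 (-2.19 ± 0.55), the ferroxidase Heph (-2.01 ± 0.60), the NADPH oxidase Nox4 (-1.995 ± 0.49) and Plcxd2 (-1.95 ± 0.52). Nfe2 read 2.31, 2.26, 6.27, 2.56 and 2.6 CPM in vehicle and 0.157, 0.406, 0.42, 0.426 and 0.358 CPM in treated livers at day 14, with no overlap, while the groups overlapped at day 7. These treated levels rest on few reads a library, and Nfe2 lost its call in 4 of the 20 fits without a library (edgeR adjusted p up to 0.0545). Upp2 had an effect of 2.31 at day 7 and -0.60 at day 14, and 205 of the 232 genes called lower had opposite signs on the 2 days. Its groups overlapped at both days and its vehicle level rose from 13.8 ± 10.9 to 42.9 ± 31.9 CPM, a change that was not called. Each of these 9 genes lost its call in at least 1 of the 20 fits without a library, from 1 fit for Epha3 and Nox4 to 13 for Heph.

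The vehicle groups carried part of the difference at most called genes, while in 6 of the 537 the vehicle change went against it. Vehicle livers of day 14 differed from those of day 7 at 3 genes, Nuak1 (log2 1.05) and Rreb1 (0.73) higher and Alox15 (-3.75) lower, which is 0.0247% of the genes tested; without the library score none was called and 508 had an unadjusted p under 0.05. In treated livers 623 genes rose and 340 fell from day 7 to day 14, 7.91% of those tested. The median part of the difference that came from the vehicle groups was nevertheless 36.4% for the 305 genes called higher and 40.8% for the 232 called lower. In 124 of the 537 (23.1%) the vehicle part was the larger. For the 20 called genes of the fatty acid and PPARα lists the median was 28.3%, and the vehicle part was the larger in 2. The kinase gene Nuak1 had almost no treated part: its difference of -1.002 ± 0.29 was called while its treated livers changed by 0.05. Nuak1 was named because its vehicle change was called, which favours a large vehicle part. Its vehicle livers of the 2 days overlapped, and it lost its call in 10 of the 20 fits without a library (edgeR adjusted p up to 0.112). Of the 537 genes, 1 had a called vehicle change. Vehicle shares, here and for single genes above, are set in part by the choice of called genes, since the vehicle values enter the difference. They do not measure a vehicle change on their own.

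Few called genes had a called effect at day 7. It was called in the direction of the difference in 6 of the 537 and against it in 43. By sign alone, called or not, the effect at day 7 and that at day 14 were opposite in 477, and in 59 the effect had the same sign on both days and was larger at day 14. These signs, and the calls at days 7 and 14, are set in part by the choice of called genes, since the values of both days enter the difference. Day 28 livers do not. At day 28, 4.2% of all genes were called higher and 3.48% lower, 7.68% in all. Of the 59 genes, 39 were then called in the direction of the difference and none against it. Of the other 478, 15 were called in that direction and 20 against it. Of the 20 called fatty acid and PPARα genes, 14 already had the later direction at day 7, all 20 were called at day 14, and 15 were called in the same direction at day 28. Of all 76 members of these lists tested, 46 were called at day 28 in the direction of their difference and 6 against it. Against vehicle, 183 genes (1.5%) were called at day 7 and 1543 (12.7%) at day 14.

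**Figure D4:**
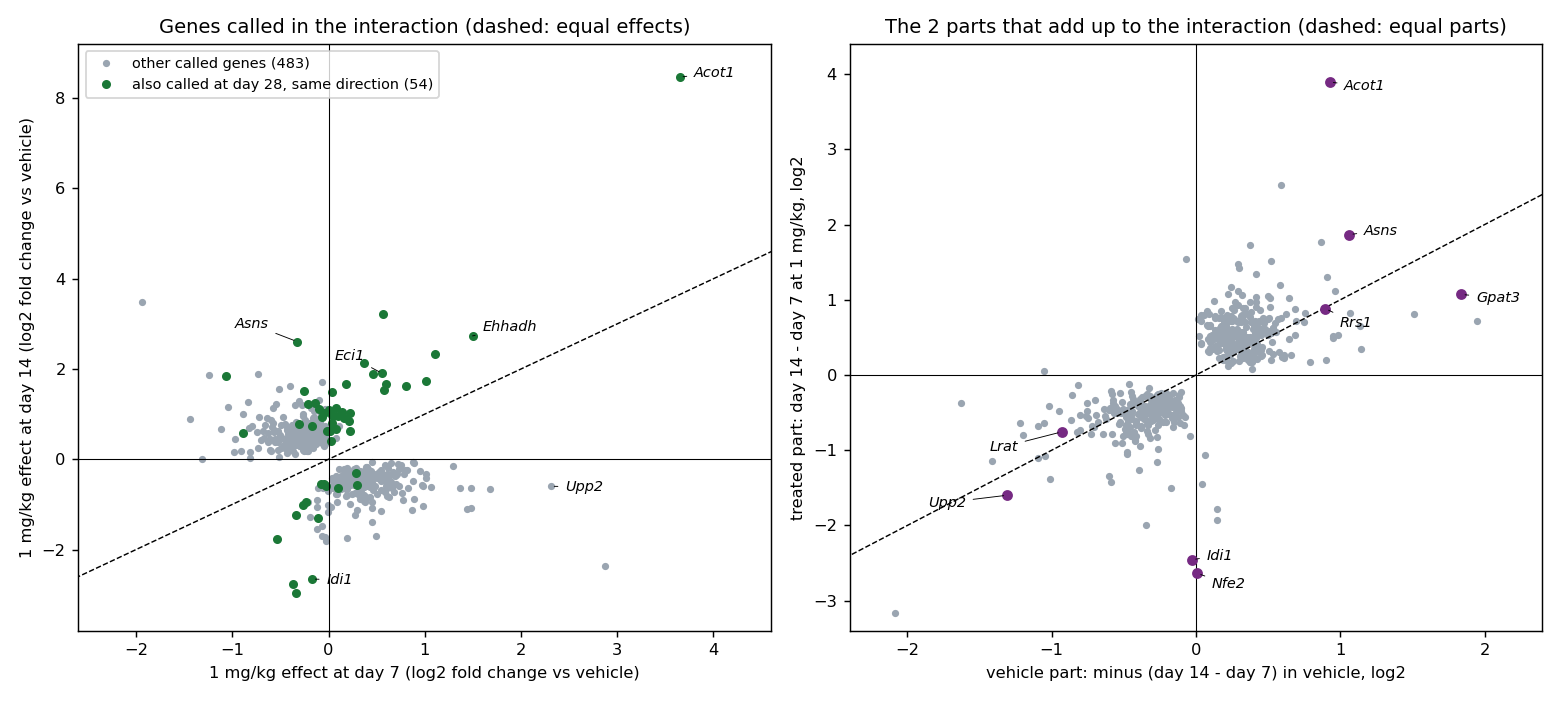
Left, log2 effect of 1 mg/kg at day 14 against that at day 7 for the 537 called genes; green points were also called at day 28 in the same direction, and the dashed line marks equal effects. Right, the treated part of each difference against its vehicle part, with the dashed line at equal parts. Acot1, Ehhadh and Eci1 lie where both effects are positive, most other genes have values of opposite sign on the 2 days, and Idi1 and Nfe2 have almost no vehicle part.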

How the data were processed

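The deposited file holds whole-number read counts per gene, made by the authors from stranded polyadenylated RNA libraries. The submitters' processing notes name bcl2fastq 2.20.0.422, Trimmomatic 0.33, STAR 2.5.2b, featureCounts from Subread 1.6.0 and build Rnor_6.0. The file lists 32883 genes, of which 10602, with 1.39% of reads, have no symbol. After filtering on low counts (filterByExpr, minimum count 10, total 15), 12167 genes were tested in 1 edgeR 4.0.16 quasi-likelihood model (R 4.3.3, TMM scaling, robust) of all 12 groups and 60 libraries, 5 a group. The library score, the signed mean of the 500 genes following the first axis of within-group residuals, was a covariate. Calls use a Benjamini-Hochberg adjusted p under 0.05 over all genes tested. SEs were derived from the test, as the absolute log2 fold change over the square root of its F statistic. CPM are counts over TMM-scaled library size. The part from vehicle is minus the vehicle change over the difference. Single library measures had exact two-sided permutation tests. Only the fit with the library score was tested on simulated data, for the difference alone and with no second axis put in.

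Alternatives were DESeq2 1.42.0 size factors and Wald test, limma 3.58.1 voom, a fold minimum of 1.5, no filter, other scores, only the libraries compared, and leaving out each library; the second axis was added after the data were seen. The text names the 10 largest called differences each way with a symbol and a mean of at least 1 CPM, and names from a panel of 16, in each list the 3 genes of lowest interaction p, and the 5 largest called changes each way in vehicle and at days 7 and 14. Aig1, Rpusd3, Acot4, Acaa1a, Pex11a, Plin5, Sqle, Insig1, Kdr and Ptprb were named after their values were seen. The members and lists were chosen with earlier results of these data known. Of 867 list symbols 815 were found. Rats were numbered in the order of deposition, which the labels do not tie to any pairing. Some results are not reported here. Each rat is a biological replicate per the labels.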

Additional observations from a re-analysis of the deposited data

Results flagged for a closer look

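The effect of 1 mg/kg differed between day 14 and day 7, by the test of that difference, at 305 genes in the higher and 232 in the lower direction. Among the 48 of 54 named genes that passed, the log2 differences above 0 were Acot1 4.82, Ehhadh 1.24, Ech1 0.83, Acot3 1.44, Acot4 0.96, Eci1 1.34, Cpt2 0.75, Acot2 1.24, Mlycd 1.02, G0s2 2.10, Asns 2.93 and Atf5 1.304. Further ones above 0 were Shmt2 0.64, Angptl8 2.64, Gpat3 2.91, Scand1 2.03, Irx1 1.89, Pcsk4 1.78, Rrs1 1.78, Pdxp 1.77, Aig1 1.08, Rpusd3 1.32, Acaa1a 1.77, Pex11a 0.73 and Plin5 1.39. Below 0 they were Idi1 -2.48, Insig2 -1.09, Cyp51 -1.41, Stac3 -2.395, Upp2 -2.91, Nfe2 -2.63, Chrdl1 -2.56, Rhbdl3 -2.34, Epha3 -2.19, Heph -2.01, Nox4 -1.995, Plcxd2 -1.95 and Hgf -1.42. The others below 0 were Lrat -1.69, Fcgr2b -0.94, Lyve1 -0.83, Stab2 -1.03, Msr1 -1.03, Nuak1 -1.002, Sqle -1.78, Insig1 -1.68, Kdr -0.71 and Ptprb -1.03.

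In 21 of 232 sets of 5 rats, 1 rat stood apart from the other 4, by a gap to its nearest neighbour of over 0.71 of the set's range. Chance flags about 1 in 20 such sets. In vehicle livers at day 7 the CPM of the rat that stood apart were Stac3 at 67.2 and Alox15 at 19.4. In treated livers at day 7 the CPM of the rat that stood apart were Sqle at 6.95 and Insig1 at 77.7. In vehicle livers at day 14 the CPM of the rat that stood apart were Fgf21 at 1.99, Gpat3 at 2.94, Nfe2 at 6.27, Aig1 at 47.9 and Ptprb at 23.9. In treated livers at day 14 the CPM of the rat that stood apart were Acot1 at 471, Eci1 at 1878, G0s2 at 498, Fgf21 at 11.9, Angptl8 at 58.4, Scand1 at 10.5, Rrs1 at 27.1, Nfe2 at 0.157, Aig1 at 104, Pex11a at 449 and Sqle at 16.9. The Nfe2 values of treated livers at day 14 rest on few reads a library. Total counts of 1 vehicle library at day 14 stood apart at 17682937. Treated rat 4 was the one standing apart at day 14 for Acot1, Eci1, G0s2, Fgf21, Angptl8, Scand1, Rrs1, Aig1 and Pex11a. Without that rat 79 genes were higher and 77 lower. Its part in each of these genes beyond the fits without it was not tested.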

How the results depend on the processing

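With size factors of DESeq2, a minimum fold of 1.5, a score from the other 40 libraries, or without libraries of extreme score, the difference kept its counts within 1.5 times. The score from the other 40 libraries had a correlation of 1 with the reported score. None of the 3 libraries of extreme score was among the 20 compared. These fits were therefore close to the reported one from the start. The difference moved to 440 higher and 358 lower with the DESeq2 Wald test, 462 and 426 with a score from 2 gene lists, 189 and 197 with limma-voom, 159 and 103 with no filter, 401 and 415 with only the 20 libraries, 12 and 6 with no score, and 4 and 0 with the second axis. The cause was not tested. No named gene called in the difference reversed in any of these fits; of the 48, 12 stayed called with no score, 4 with the second axis and 36 with no filter.

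For the effects at days 7 and 14 and the vehicle change, values are counts of genes higher and lower. With no score they were 11 and 3 at day 7, 458 and 359 at day 14 and 0 and 0 for vehicle. With the second axis, 121 were lower at day 7 and 382 and 260 passed at day 14. With the fold minimum they were 71 and 48 at day 7 and 389 and 340 at day 14. With no filter, 35 and 429 were lower at days 7 and 14 and 0 in vehicle. With only the libraries compared, 38 were lower at day 7, 409 and 367 passed at day 14 and 20 and 3 in vehicle. The Wald test gave 186 and 131 at day 7 and 13 and 12 in vehicle, limma-voom 0 and 0 in vehicle, the list score 2 lower, and leaving out extreme scores 4 higher in vehicle.

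For the treated change and day 28, values are the percent of genes tested that were higher and lower, 5.12% and 2.79% for the treated change and 4.2% and 3.48% for day 28 in the reported fit. The treated change went to 0.0986% and 0.0904% with no score, 0.0658% and 0.074% with the second axis, 2.61% and 0.863% with the fold minimum, 1.79% and 0.752% with no filter, and 2.07% and 0.978% with only the libraries compared. Day 28 went to 1.85% and 1.38% with no score and 0.822% and 0.616% with only the libraries compared, and the lower share to 1.92% with the fold minimum and 1.34% with no filter.

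Leaving out 1 library gave 65 to 495 higher and 38 to 368 lower for the difference, 37 to 149 and 28 to 113 at day 7, 400 to 1002 and 367 to 780 at day 14, 3.02% to 4.36% and 1.87% to 3.79% at day 28, 0.378% to 8.38% and 0.271% to 4.27% for the treated change, and 0 to 3 and 0 to 3 for vehicle. For the difference, counts higher and lower were 65 and 38 without vehicle rat 3 of day 7, 166 and 136 without rat 4, 139 and 105 without vehicle rat 2 of day 14 and 134 and 128 without rat 4. Without treated rats 1, 2, 3 and 5 of day 7 they were 141 and 108, 92 and 76, 155 and 127, and 475 and 347. Without treated rats 1, 2, 4 and 5 of day 14 they were 186 and 134, 197 and 142, 79 and 77, and 495 and 368. The lowest treated change, 0.378% and 0.271%, came without treated rat 4 of day 14, and the lowest share lower at day 28 without vehicle rat 3. Values near 0 changed sign. Cyp4a1 went to -0.01635 with only the 20 libraries and ran from -0.0682 to 0.229 over leave-outs, Vnn1 from -0.0645 to 0.291 and Rreb1 from -0.186 to 0.00524, and Rreb1 was 0.18 with the list score and 0.63 with no score. No paired analysis was possible because the labels carry no replicate numbers.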

Other observations

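Some gene lists with no or 1 call held values that leaned to 1 side. All 12 mitochondrially encoded genes tested had a negative difference, with a median of -0.68, and none was called. Their share of counts was 3.22% in vehicle and 5.47% in treated livers at day 7 and 3.42% and 4.44% at day 14 (exact permutation p of the difference of differences = 0.408, adjusted p = 0.612). All 10 T and NK cell markers tested were negative as well, with a median of -0.46 and no call, and all 10 genes predominant in male liver were negative with a median of -0.59 and 1 call, against 1.91% of all genes lower. Of 28 cell cycle genes 22 were positive and none was called, with a median of 0.38, while the median vehicle change of the list was -0.58. The genes of a list share their libraries, so these counts are descriptions.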
